A study of Mus musculus with 4 samples.

Results

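Fat cells store fatty acids as triacylglycerol in lipid droplets, and the genes described here cover the regulators that start fat cell formation and the proteins that take up, assemble and hold that lipid. All probe sets annotated to Cebpa, Cebpb, Cebpd, Plin2, Dgat1, Dgat2, Fabp4, Lpl, Cd36 and Lpin1 were taken, which gave 20 of the 22626 probe sets of the arrays that are not controls. They stand for 10 of the 12393 genes that the platform annotation assigns to probe sets with a single symbol. The samples were mouse embryonic fibroblasts, connective tissue cells put in culture from embryos, of strain C57BL/6J and embryonic day 10.0, on 2 arrays labelled Med1-/- p53-/- and 2 arrays labelled Med1+/+ p53-/-. Both groups therefore lack p53. Per the labels, the embryos of both came from 1 mating of a Med1+/-p53-/- male with a Med1+/-p53+/- female, and the cells were grown in medium with 10% fetal calf serum. Med1 is a subunit of Mediator, the complex that joins DNA-bound transcription factors to RNA polymerase II. No agent that induces fat cell formation is named in the labels. Nor do they say whether the cells on the 2 arrays of each genotype were grown separately. The p-values therefore cover only how these samples vary, which may be technical. Effects of Med1 loss and of anything else in which the 2 sets of embryos differ cannot be told apart.

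In cultured mouse preadipocytes, the transcription factors C/EBP beta and C/EBP delta appear early after hormonal induction and lead to C/EBP alpha and PPAR gamma, which then drive the genes of the mature fat cell. Fatty acids reach the cell when lipoprotein lipase splits the triacylglycerol of blood lipoproteins, and they are taken up and bound by proteins such as CD36 and FABP4. Inside, lipin 1 removes the phosphate from phosphatidate to give diacylglycerol, DGAT1 and DGAT2 add the last acyl chain, and perilipin 2 coats the droplet. Med1 binds nuclear receptors including PPAR gamma, and fibroblasts without Med1 have been studied for their ability to form fat cells.

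Med1 itself, read by its brightest probe set 1448708_at, had deposited signals of 25.4 and 40.2 in Med1-/- cells and 664.6 and 885.6 in Med1+/+ cells. The deposited signals had no common scale, with medians of 36.1 and 51.4 for Med1-/- and 76.25 and 106.65 for Med1+/+. Values were therefore quantile normalized, which gives every array the same distribution. All levels below are log2 (normalized intensity + 1.7), except where the deposited signal is named. Differences are Med1-/- minus Med1+/+ on that scale, tested with limma over 13576 probe sets that passed a filter on the mean, with Benjamini-Hochberg adjustment and a threshold of 0.05. The 4 arrays limit the precision of every value. The ratio of 3' to 5' signal of the actin control was 1.28 and 1.22 for Med1-/- and 1.52 and 1.38 for Med1+/+, and that of the Gapdh control was 1.11 and 1.0 against 0.95 and 0.9. The part of this difference in the results was not tested.

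Set against the rest of the array, 5 of the 10 genes were called higher in Med1-/- cells and 3 lower, while 2 were not tested. Of the 20 probe sets, 13 passed the filter, standing for 8 genes. Of these 13, 8 were higher, 4 were lower and 1 did not pass the test. The 12 calls were 92.3% of the 13, beside 72.1% of all 13576 probe sets tested (36.3% higher and 35.7% lower), and 6 of the 13 were called and changed at least 2-fold, beside 39.8% of all tested. All 13 had groups that did not overlap, as did 87.0% of all tested. Of the 7 members under the filter 4 did not overlap, beside 45.1% of all probe sets left out by it. Without the filter 43.2% of all 22626 probe sets were called. With so many genes called, the count of members says little by itself, and the median absolute log2 change of the 13 (0.89) lay near that of all tested probe sets (0.83). Higher were Cebpb, Cebpd, Dgat1, Dgat2 and Plin2, and lower were Lpl, Fabp4 and Lpin1. Cebpa and all probe sets of Cd36 lay under the filter in both genotypes.

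**Figure D1:**
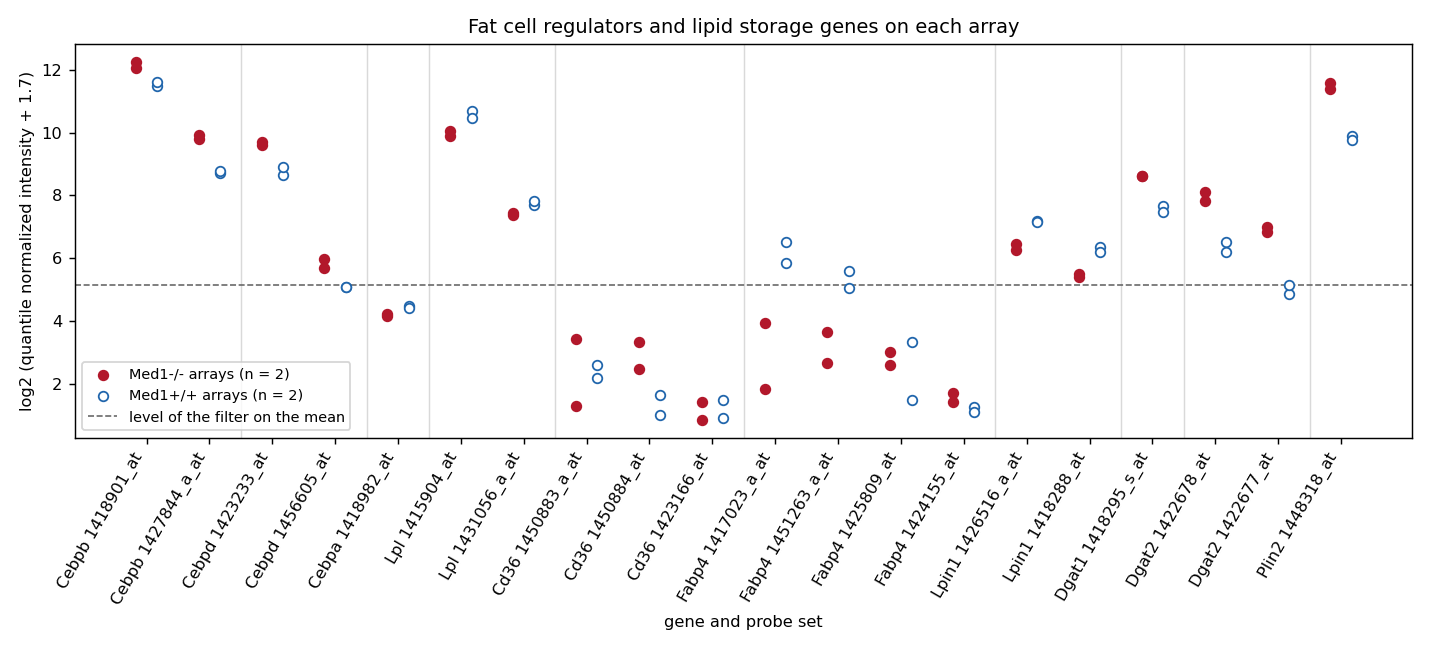
Level of each of the 20 probe sets on each array, as log2 (quantile normalized intensity + 1.7), with filled points for the 2 Med1-/- arrays and open points for the 2 Med1+/+ arrays. Each point is 1 array, the dashed line marks the filter level, and grey lines part the genes. The 2 genotypes do not overlap for any of the 13 probe sets that passed the filter, whereas the Cd36 probe sets all lie under the line.

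The balance of 8 higher against 4 lower probe sets holds relative to the rest of the arrays, not on every scale. In the values as deposited 1 of the members was called higher and 5 lower, and after scaling on the hybridisation controls 4 were higher and 5 lower. With the Bacillus subtilis control probe sets as the scale 0 were higher and 11 lower (limma, 0 higher also at an unadjusted p under 0.05). Whether each sample held equal amounts of these control transcripts was not tested. Under these scalings the median log2 change of all tested probe sets was -0.87, -0.88 and -1.85, against 0.029 after quantile normalization, so most of the arrays' probe sets shifted down with the members. Taken relative to that median, the 12 called probe sets had the same sign under the 6 scalings tried. The 5 other scalings multiply each array by a constant, which the subtraction largely undoes, so they amount to a single comparison with quantile normalization. Words such as higher and lower below mean relative to the other genes, as quantile normalization gives it.

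**Figure D2:**
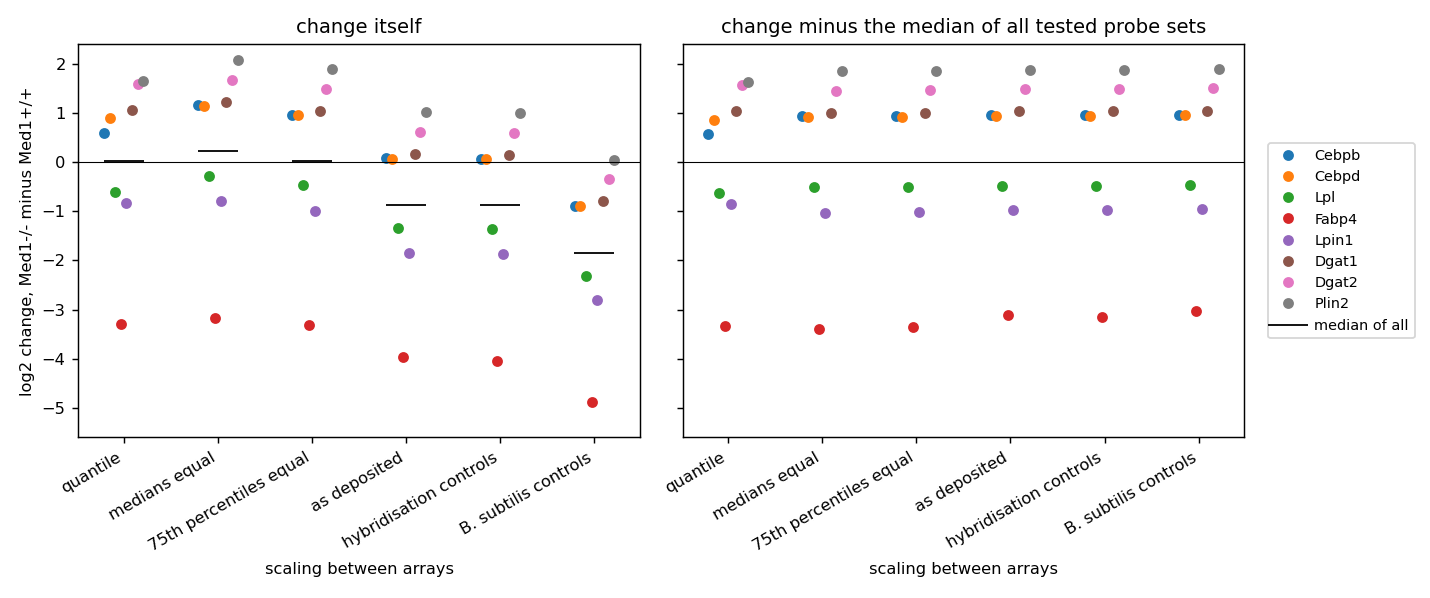
Log2 change, Med1-/- minus Med1+/+, of the brightest tested probe set of 8 genes under 6 scalings between arrays. The left panel has the change itself, with bars at the median of all tested probe sets, and the right panel the change after that median is subtracted. On the left Plin2 runs between 0.047 and 2.08, and on the right between 1.62 and 1.89, where the 5 scalings that multiply arrays by a constant give nearly the same values by construction.

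Cebpb and Cebpd, the early regulators, were both higher in Med1-/- cells. The brighter Cebpb probe set, 1418901_at, stood at 12.05 and 12.26 on the Med1-/- arrays and at 11.49 and 11.62 on the Med1+/+ arrays. In Med1-/- cells its deposited signals were 2831.7 and 4832.7, and in Med1+/+ cells 2863.4 and 4255.0. The groups thus separated on the normalized scale, while the deposited signals overlapped. The log2 change was 0.60 (SE 0.11, n = 2 each; adjusted p = 0.00318, limma). A second Cebpb probe set, 1427844_a_at, stood at 9.92 and 9.79 against 8.73 and 8.78 in Med1+/+ cells, a change of 1.10 (SE 0.11; adjusted p = 0.000256, limma). Both probe sets of Cebpb were therefore called in the same direction, with the 95% intervals 0.33 to 0.87 and 0.84 to 1.36.

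For Cebpd the brighter probe set, 1423233_at, stood at 9.61 and 9.71 in Med1-/- cells and at 8.65 and 8.90 in Med1+/+ cells. The log2 change was 0.89 (SE 0.13, n = 2 each; adjusted p = 0.00103, limma), a 1.85-fold difference. Its deposited signals overlapped, with 462.3 and 731.0 in Med1-/- cells and 430.6 and 712.7 in Med1+/+ cells. The dimmer Cebpd probe set, 1456605_at, changed by 0.75 (SE 0.27; adjusted p = 0.042, limma). The deposited signals of 1456605_at overlapped as well, with 26.8 and 46.3 in Med1-/- cells and 35.6 and 50.3 in Med1+/+ cells. This probe set passed the filter only through its Med1-/- values, and it was not called with 75th percentiles set equal (adjusted p = 0.081, limma). Its call had the highest adjusted p of the 12, and it was lost when Med1-/- replicate 2 (adjusted p = 0.119), Med1+/+ replicate 1 (0.15) or Med1+/+ replicate 2 (0.146) was left out, and without the filter (0.0926; all limma).

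Cebpa, which encodes the C/EBP protein that acts later and is kept on in mature fat cells, was dim in both genotypes. Its only probe set, 1418982_at, had deposited signals of 10.2 and 13.0 in Med1-/- cells and 22.3 and 29.9 in Med1+/+ cells. On the normalized scale these were 4.23 and 4.16, against 4.48 and 4.41 in Med1+/+ cells, below the filter. The difference of -0.25 did not pass when the filter was dropped (95% interval -1.26 to 0.77; adjusted p = 0.679, limma). Pparg, outside the 10 genes, had deposited signals of 10.3 and 23.8 in Med1-/- cells and 53.2 and 65.4 in Med1+/+ cells on 1420715_a_at. Its mean normalized intensity lay just above the filter, which it passed only through its Med1+/+ values. The log2 change of -0.89 (SE 0.38, n = 2 each; adjusted p = 0.071, limma) did not pass the test.

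The promoters of the members can be read beside these values. RefSeq's promoter table (GRCm38.p6) held 5 of the 10 genes, namely Cebpa, Cebpb, Cd36, Lpin1 and Plin2. The 250 bases before the annotated start were searched on both strands. The motifs were the C/EBP core TTNNGNAA, the full C/EBP palindrome, the direct repeat bound by PPAR with RXR, and the nuclear receptor motif AGGTCA, which that direct repeat can contain. Further motifs were the cAMP response element TGACGTCA, the E-box, the CCAAT box, the TATA box and the GC box GGGCGG. The Cebpb stretch, 81.6% G and C beside a median of 52.4% for all promoters, held 5 matches to the GC box, and none of the other motifs. It is shown for a regulator that was higher, from chr2:167688665-167688914 on the plus strand, with the GC boxes, of which 2 overlap, in capitals.
Cebpb: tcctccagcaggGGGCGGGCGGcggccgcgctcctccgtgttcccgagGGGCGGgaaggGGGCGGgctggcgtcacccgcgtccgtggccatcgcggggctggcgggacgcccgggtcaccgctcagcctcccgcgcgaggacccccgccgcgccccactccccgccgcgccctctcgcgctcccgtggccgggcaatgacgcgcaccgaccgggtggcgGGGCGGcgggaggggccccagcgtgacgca
The GC box occurred at least once in 32.7% of the 32851 promoters of the table, and the Cd36 stretch held 2 matches. How often promoters as rich in G and C hold 5 matches was not counted. The letters AGGTCA stood before the starts of Plin2, Lpin1 and Cd36, and in 14.0% of all promoters. The Cd36 start used here lies within a longer gene model, which extends 53063 bases further upstream. Plin2 was higher and Lpin1 lower in Med1-/- cells, so the stretches of both are shown with that motif in capitals: Plin2 from chr4:86670218-86670309 on the minus strand, limited to the bases before its longest gene model, and Lpin1 from chr12:16610967-16611216 on the minus strand, a start that lies within a longer gene model.
Plin2: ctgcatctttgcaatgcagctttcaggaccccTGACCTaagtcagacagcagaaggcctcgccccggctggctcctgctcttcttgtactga
Lpin1: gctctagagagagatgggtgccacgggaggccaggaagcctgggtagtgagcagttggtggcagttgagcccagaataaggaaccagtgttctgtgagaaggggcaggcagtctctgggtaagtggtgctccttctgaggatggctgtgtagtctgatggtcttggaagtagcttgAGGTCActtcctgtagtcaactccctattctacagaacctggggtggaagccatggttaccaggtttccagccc
In Plin2 the match reads on the opposite strand. The C/EBP core matched only before Cd36 among the 5 genes (36.8% of all promoters), and the palindrome and the direct repeat matched none of the 5 (0.00609% and 0.338% of all promoters). A match is a description of the letters in this window and not of binding.

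Lpl, which encodes lipoprotein lipase, was lower in Med1-/- cells. Its brighter probe set, 1415904_at, stood at 10.07 and 9.90 in Med1-/- cells and at 10.68 and 10.48 in Med1+/+ cells. The deposited signals were 644.5 and 834.7 in Med1-/- cells, against 1667.1 and 2079.8 in Med1+/+ cells, without overlap. The log2 change was -0.60 (SE 0.12, n = 2 each; adjusted p = 0.00452, limma). Its size depended on the scaling, and with array medians set equal the change was -0.28 and the call was lost (adjusted p = 0.064, limma). The second Lpl probe set, 1431056_a_at, stood at 7.39 and 7.44 in Med1-/- cells and at 7.69 and 7.82 in Med1+/+ cells. Its difference of -0.34 (SE 0.13; adjusted p = 0.0536, limma) ran the same way but did not pass.

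Fabp4, a fatty acid binding protein of fat cells, macrophages and endothelium, had the largest fall of the 12 called probe sets, at low signal. On 1417023_a_at the deposited signals were 1.2 and 11.2 in Med1-/- cells and 63.0 and 140.5 in Med1+/+ cells. The normalized levels were 1.82 and 3.94 in Med1-/- cells and 5.85 and 6.51 in Med1+/+ cells, so the arrays of each genotype also lay apart from each other. The log2 change was -3.30 (SE 0.74, n = 2 each; adjusted p = 0.00717, limma), with a 95% interval of -5.10 to -1.50. This probe set passed the filter only through its Med1+/+ values, and a member that is bright in a single genotype had to differ. Its call was lost without Med1+/+ replicate 2 (adjusted p = 0.0862, limma), and with a pseudocount of 32 the change was -1.40.

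The other 3 Fabp4 probe sets lay under the filter and did not run together. The brightest of them, 1451263_a_at, had deposited signals of 6.6 and 4.0 in Med1-/- cells and 35 and 73.6 in Med1+/+ cells, a difference of -2.16 that passed once the filter was dropped (adjusted p = 0.0184, limma). The remaining pair, 1425809_at and 1424155_at, had deposited signals of 0.7 to 3.9 in Med1-/- cells and 0.6 to 12.1 in Med1+/+ cells, and differences of 0.40 and 0.38 that did not pass without the filter (adjusted p = 0.704 and 0.546, limma).

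Cd36, a fatty acid receptor of the plasma membrane of fat cells, muscle and macrophages, was at the bottom of the range. Its 3 probe sets had deposited signals from 0.1 to 7.5 over all arrays and both genotypes. On 1450884_at the signals were 5.2 and 3.2 in Med1-/- cells, against 1.4 and 0.4 in Med1+/+ cells, and the difference of 1.58 did not pass without the filter (adjusted p = 0.0665, limma). The other 2 overlapped between genotypes and differed by -0.031 and -0.049. None of the 3 probe sets gave a difference that passed, and they did not run together.

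Lpin1, which encodes the phosphatidate phosphatase lipin 1, was lower on both of its probe sets. On 1426516_a_at the levels were 6.45 and 6.25 in Med1-/- cells and 7.19 and 7.16 in Med1+/+ cells. The log2 change was -0.83 (SE 0.16, n = 2 each; adjusted p = 0.0041, limma), and the deposited signals were 46.0 and 56.8 in Med1-/- cells, against 161.2 and 220.4 in Med1+/+ cells. On 1418288_at the levels were 5.49 and 5.40 in Med1-/- cells and 6.35 and 6.21 in Med1+/+ cells, also a change of -0.83 (SE 0.22; adjusted p = 0.0134, limma). The call of the second probe set was lost without Med1+/+ replicate 1 (adjusted p = 0.115) or replicate 2 (0.0688; limma).

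Dgat1 and Dgat2 encode enzymes of unrelated protein families that carry out the same reaction, the last step of triacylglycerol synthesis, and both were higher in Med1-/- cells. Dgat1 has a single probe set, 1418295_s_at, whose identifier marks probes that may also match transcripts of other genes. It stood at 8.61 and 8.63 in Med1-/- cells and at 7.66 and 7.46 in Med1+/+ cells, higher on the log2 scale by 1.06 (SE 0.13, n = 2 each; adjusted p = 0.000546, limma). Its deposited signals overlapped, with 227.4 and 331.7 in Med1-/- cells and 222.4 and 271.4 in Med1+/+ cells.

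Dgat2 was higher on both of its probe sets. On 1422678_at the levels were 8.10 and 7.81 in Med1-/- cells and 6.52 and 6.21 in Med1+/+ cells, higher on the log2 scale by 1.59 (SE 0.18, n = 2 each; adjusted p = 0.000422, limma). On 1422677_at they were 6.82 and 6.99 in Med1-/- cells and 4.85 and 5.13 in Med1+/+ cells, a change of 1.92 (SE 0.23; adjusted p = 0.000472, limma). The second of these passed the filter only through its Med1-/- values. The deposited signals of both probe sets were also higher on each Med1-/- array than on each Med1+/+ array, with 154.2 and 179.8 against 101.5 and 114.4 on the first.

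Plin2, whose protein coats lipid droplets in most cell types, had the smallest adjusted p of the members. Its probe set 1448318_at stood at 11.58 and 11.40 in Med1-/- cells and at 9.91 and 9.77 in Med1+/+ cells. The deposited signals were 2054.3 and 2595.2 in Med1-/- cells and 1006.5 and 1294.8 in Med1+/+ cells, and these groups did not overlap either. The log2 change was 1.65 (SE 0.11, n = 2 each; adjusted p = 0.000102, limma), a 3.13-fold difference. Plin2 was the only member called higher in the values as deposited (log2 change 1.02; adjusted p = 0.0463, limma). After scaling on the Bacillus subtilis controls its change was 0.047 (adjusted p = 0.81, limma), which was 1.89 above the median of all tested probe sets.

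**Figure D3:**
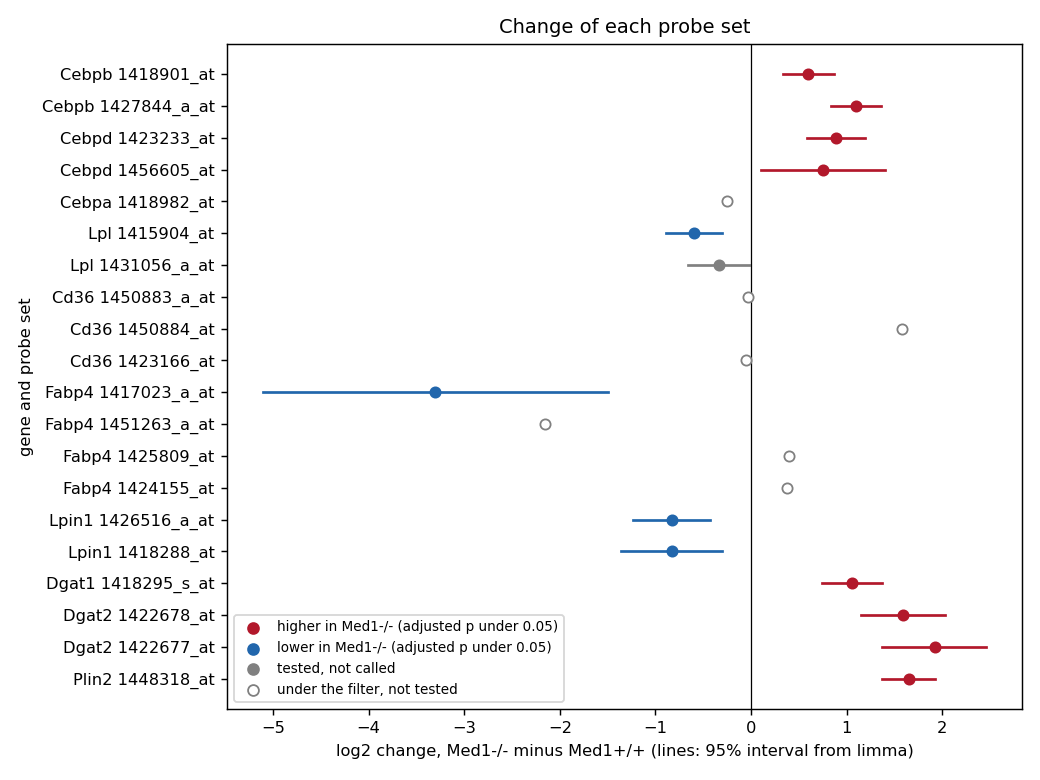
Log2 change of each of the 20 probe sets, Med1-/- minus Med1+/+, with lines for the 95% interval from limma where the probe set was tested. Red marks higher and blue lower at an adjusted p under 0.05, grey a tested probe set that was not called, and open points those under the filter. Cebpb, Cebpd, Dgat1, Dgat2 and Plin2 lie right of 0, Lpl, Lpin1 and the brightest Fabp4 probe set left of it.

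Among the genes that work with these members, those of triacylglycerol synthesis changed in both directions. For lists of genes the probe set with the highest mean stood for the gene, and 75.4% of 7889 genes so measured were called, 39.6% higher and 35.8% lower, with a median log2 change of 0.11. Of 14 tested synthesis genes other than the members, 6 were higher and 6 lower, with a median of -0.018. The largest changes among those called were rises of the acyltransferase genes Mogat2 (2.55, which passed the filter only through its Med1-/- values), Agpat1 (2.08) and Agpat3 (1.92), and a fall of Acsl4 (-2.06), which activates long-chain fatty acids. The product of Mogat2 makes diacylglycerol without phosphatidate, and the deposited signals were 41.5 and 73.8 in Med1-/- cells and 17.8 and 15.9 in Med1+/+ cells. Other genes, named after their values were seen, were Lpin2, a paralog of Lpin1, which fell by 0.73 (adjusted p = 0.00288, limma), and the genes for a phosphatase and its partner that act on lipin proteins. Of these Ctdnep1 rose (1.60) and Cnep1r1 fell (-1.86). Among genes for other phosphatases, also named after their values were seen, Plpp2 rose (1.18) and Plpp1 (-0.62) and Plpp3 (-1.10) fell. Whether their products act at the lipin step was not tested. The acyltransferase genes Agpat5 (-0.072) and Gpam (0.036) did not pass the test.

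**Figure D4:**
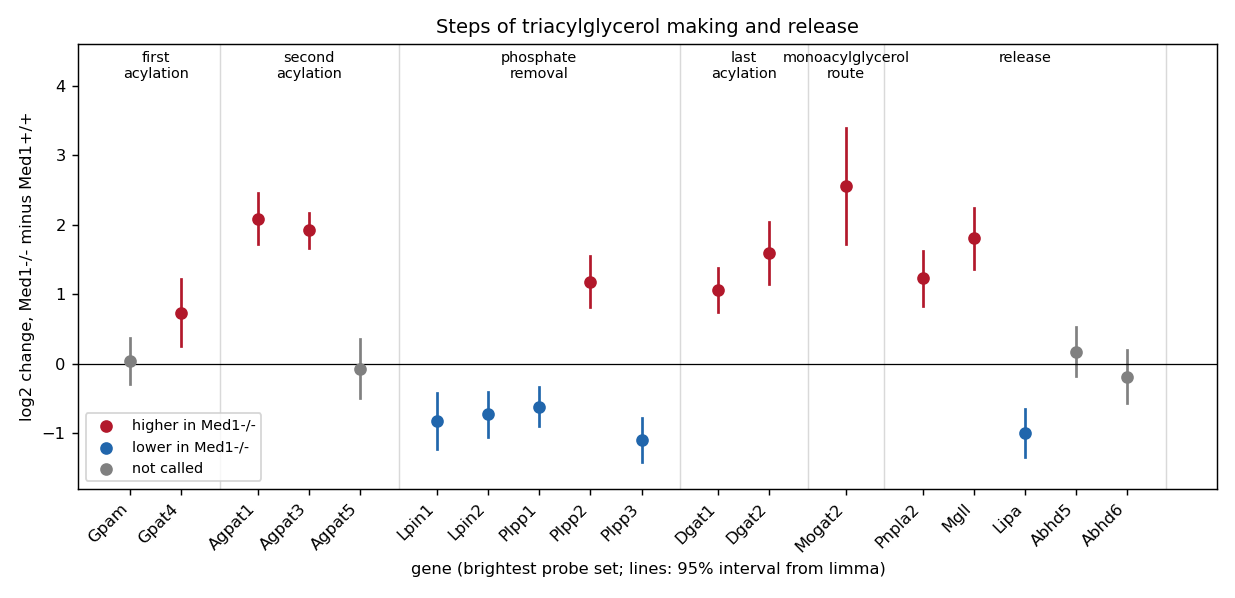
Log2 change, Med1-/- minus Med1+/+, of chosen tested genes of triacylglycerol synthesis and release, with lines for the 95% interval from limma (n = 2 per genotype). The tested genes Acsl4 (-2.06), Acsl5 (-1.04), Ctdnep1 (1.60), Cnep1r1 (-1.86), Prkaca (1.40) and Prkacb (-0.62) are not drawn. Lpin1 and Lpin2 lie below 0. Plpp1 and Plpp3 lie below 0 and Plpp2 (1.18) above it. These 3 phosphatase genes are drawn beside the lipins, but whether they act at the same step was not tested. Agpat1 (2.08) and Agpat3 (1.92) lie above 0 and Agpat5 near it (-0.072), and Dgat1 (1.06) and Dgat2 (1.59) lie above 0.

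Lipolysis, the release of stored fatty acids, had 3 genes higher and 2 lower of 7 tested, with a median log2 change of 0.17. The triacylglycerol lipase gene Pnpla2 rose by 1.23 and the monoacylglycerol lipase gene Mgll by 1.80, as did Prkaca (1.40), a catalytic subunit of protein kinase A. The lysosomal lipase gene Lipa fell (-1.0). Lipe, the hormone-sensitive lipase gene, lay under the filter, with deposited signals of 16.4 and 19.1 in Med1-/- cells and 12.9 and 21.8 in Med1+/+ cells.

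Of 10 tested genes for other lipid droplet proteins, 1 was higher, 5 were lower and 4 did not pass the test, with a median of -0.27. Plin3, another coat protein of the same family, fell by 0.40 (SE 0.14; adjusted p = 0.0357, limma) and was named after its values were seen. Hsd17b11 (-1.42), Rab18 (-1.03) and Pcyt1a (-0.79), whose products are found on droplets, fell, and Aup1 (1.01) rose. Cidec, a droplet protein of mature white fat cells, had deposited signals of 6.5 and 7.1 in Med1-/- cells and 6.5 and 0.8 in Med1+/+ cells, under the filter.

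Fatty acid uptake and binding genes had 3 higher and 7 lower of 11 tested beside Lpl and Fabp4, with a median of -0.85. The caveolin gene Cav2 (-1.88) and the acyl-CoA binding protein genes Dbi (-1.85) and Acbd3 (-1.73) fell. Slc27a4, a fatty acid transport protein gene, rose by 1.81. The Fabp4 paralog Fabp5, named after its values were seen, had deposited signals of 2750.3 and 3609.5 in Med1-/- cells and 6016.6 and 7643.2 in Med1+/+ cells, and fell by 0.63 (SE 0.10; adjusted p = 0.00161, limma).

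Of 9 tested genes for partners and relatives of lipoprotein lipase, 6 were higher, 3 did not pass the test and 0 were lower (limma; 0 lower also at an unadjusted p under 0.05), with a median of 1.63. Angptl4, whose product inhibits the enzyme and whose probe set may also match transcripts of other genes, rose by 2.49, and its deposited signals were 133.1 and 180.8 in Med1-/- cells and 46.8 and 58.8 in Med1+/+ cells. Furin (2.15), a protease that can cut the enzyme, Hspg2 (1.97), a heparan sulfate proteoglycan gene, and Lmf1 (1.90), needed for folding of the enzyme, rose as well. The lists were chosen with earlier results in view, so the counts describe these genes and are not independent evidence.

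Transcription factors and coactivators of fat cell formation other than the members had 8 higher and 3 lower of 18 tested, with a median of 0.46. Klf5 (1.85), which acts downstream of C/EBP beta and delta in mouse preadipocytes, and Ebf3 (1.65) rose, and Klf9 (-1.73) and the glucocorticoid receptor gene Nr3c1 (-1.53) fell. Genes listed as inhibitors had 6 higher and 9 lower of 21 tested, with a median of -0.11. Bmp2 was counted in this list, but a role as an inhibitor is not established for it. Of the 6 higher, Tgfb1 passed the filter only through its Med1-/- values. The falls included Dlk1 (-3.20), the preadipocyte factor, Bmp2 (-2.37, which passed the filter only through its Med1+/+ values), Ddit3 (-1.53), whose product blocks DNA binding of C/EBP proteins, and Insig2 (-1.49).

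**Figure D5:**
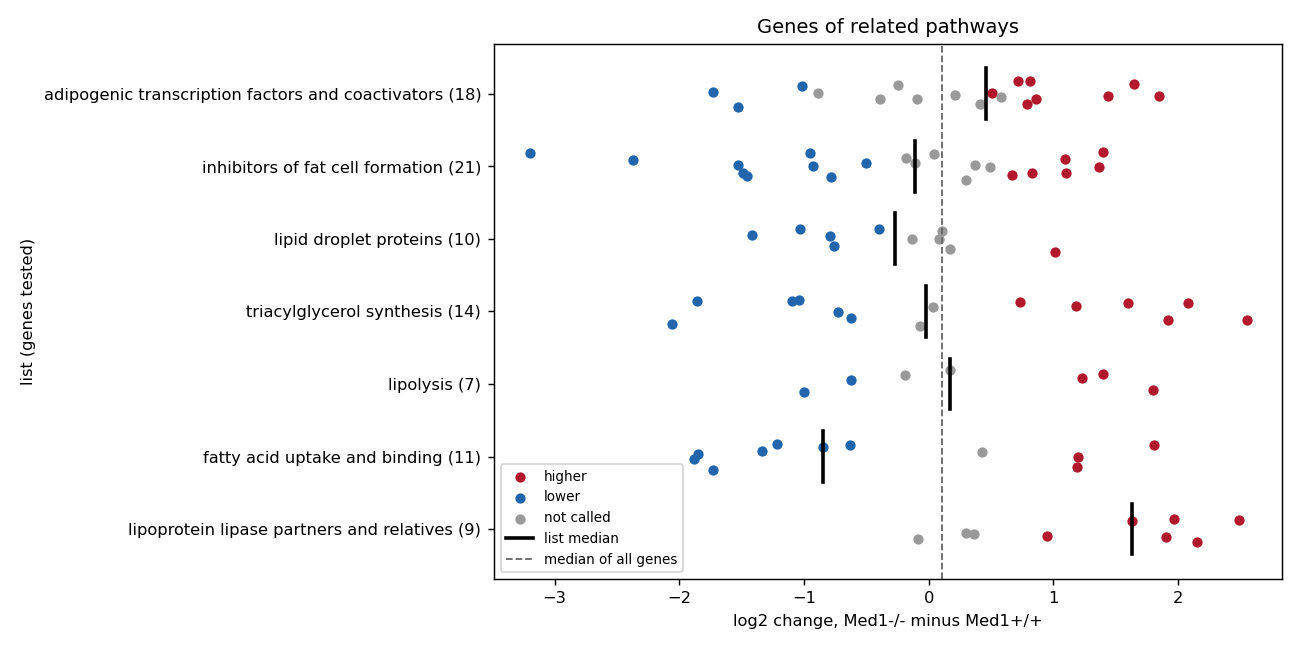
Log2 change, Med1-/- minus Med1+/+, of the tested genes in 7 lists of related pathways, 1 point per gene at its brightest probe set, red where higher, blue where lower and grey where not called. Black bars mark list medians and the dashed line the median of all genes (0.11). The lipoprotein lipase partners lie furthest right (median 1.63) and the uptake and binding genes furthest left (median -0.85).

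Markers of mature fat cells were near the bottom of the range. Adipoq, Retn, Lep, Cidec, Ucp1 and Cidea had deposited signals of 0.2 to 7.1 in Med1-/- cells and 0.2 to 7.2 in Med1+/+ cells. Of 12 white fat cell markers on the array 3 were tested, and 2 of these, Pnpla2 and Slc2a4, were higher. Slc2a4 passed the filter only through its Med1-/- values, and its call was lost without the filter (adjusted p = 0.0853, limma). The summed normalized intensity of the 12 was 356.9 and 350.7 in Med1-/- cells and 197.8 and 196.8 in Med1+/+ cells. Pnpla2, with a mean of 126.0 over the arrays against 36.9 for the next brightest, Slc2a4, weighs most in this sum. The deposited sums overlapped, at 199.6 and 276.7 in Med1-/- cells and 218.9 and 304.3 in Med1+/+ cells. Of 7 brown fat markers none was tested, with sums of 69.3 and 74.4 against 109.4 and 94.9 in Med1+/+ cells. The lower sum in Med1-/- cells came from Ppargc1a, at normalized levels of 3.15 and 3.16 against 5.73 and 5.55 in Med1+/+ cells. Its difference was -2.48, and those of the other brown markers ran from -0.26 (Cox8b) to 0.61 (Elovl3), in both directions. Fat progenitor markers had 1 higher and 4 lower of 6 tested, with sums of 3603.5 and 3503.1 in Med1-/- cells and 7158 and 6854.2 in Med1+/+ cells. In bulk RNA, fewer cells of a type and less RNA per cell cannot be told apart.

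Other cell types that use Lpl, Fabp4, Cd36 and Plin2 were checked by their markers. Of 15 macrophage markers 3 were tested, 1 being higher and 0 lower, and of 11 endothelial markers 3 were tested, 1 being higher and 1 lower. The macrophage genes Ptprc, Itgam, Aif1 and Marco had deposited signals of 0.1 to 6.1 in Med1-/- cells and 0.4 to 9.4 in Med1+/+ cells, and the endothelial genes Pecam1, Cdh5, Vwf and Tek 0.3 to 7.3 against 0.2 to 18.0 in Med1+/+ cells. Other markers in these lists had higher signals. The macrophage marker Cd14 had 95.2 and 120.6 in Med1-/- cells and 132.1 and 164.2 in Med1+/+ cells, and Csf1r 36.2 and 50.4 against 55.4 and 58.3. These deposited signals were lower in Med1-/- cells, but after normalization the direction was the opposite. There Cd14 was called higher (log2 change 0.55, adjusted p = 0.0195, limma), and Csf1r did not pass (0.62, adjusted p = 0.0597, limma). The endothelial marker Flt1 had 90.3 and 91.2 in Med1-/- cells and 266.5 and 349.2 in Med1+/+ cells, and Egfl7 69.2 and 120.1 against 42.3 and 57.1. The summed normalized intensity of macrophage markers was 383.3 and 392.3 in Med1-/- cells and 311.5 and 299.6 in Med1+/+ cells, and of endothelial markers 422.7 and 393.6 against 366.4 and 354.7. The deposited sums ran the other way, with 214.9 and 308.0 against 343.0 and 462.4 for macrophage markers. For endothelial markers they were 233.5 and 308.9 against 400.6 and 545.3. Of 12 muscle markers 4 were tested, 3 being higher and 0 lower (sums 873.4 and 863.7 against 218.0 and 186.1). Of 8 epithelial markers 5 were tested, 1 being higher and 4 lower (2319.4 and 2699.2 against 4706.3 and 4850.8). Among these calls the muscle marker Actc1, which was higher, passed the filter only through its Med1-/- values. The epithelial marker Dsp, which was lower, passed it only through its Med1+/+ values. Of 16 fibroblast markers 15 were tested, 7 being higher and 4 lower, with sums of 61015.2 and 57544.6 in Med1-/- cells and 55592.5 and 51444.3 in Med1+/+ cells. Their deposited sums overlapped, at 46942.0 and 56575.3 against 56454.2 and 65322.4. The part of the muscle and epithelial markers in the changes of the members was not tested.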

How the data were processed

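Total RNA of 4 samples was hybridised to Affymetrix arrays (1 colour, biotin label). The values are the deposited linear intensity of each probe set in the series value table. The summary method and any scaling by the authors are not given in the sources used here. Of 22690 probe sets, 64 control probe sets were left out. The intensities were quantile normalized (limma 3.58.1, R 4.3.3), and log2 (value + 1.7) was taken, the pseudocount being the 10th percentile. The 40th percentile of mean intensity was the filter, and probe sets below it were not tested. The rest were fitted together with limma's lmFit and eBayes (with a trend), two-sided, with Benjamini-Hochberg adjustment at 0.05. The script was tested on simulated data. Gene symbols are those of the platform annotation, brought up to date by Entrez ID with RefSeq (GRCm38.p6): 20380 probe sets have 1 symbol, 691 several and 1555 none. Besides Dgat1 and Angptl4, the probe sets of the named genes Hspg2, Dlk1, Mgll, Lipa, Dbi, Egfl7, Aif1 and Aqp7 may also match transcripts of other genes. The same holds for genes that were counted as called in the lists but not named, including Foxo1, Trib2, Trib3, Vldlr, Scarb1 and Sdc1. Promoters are RefSeq's, and Cebpd, Dgat1, Dgat2, Fabp4 and Lpl had no match. Figures used Python 3.11.15 and matplotlib 3.10.9.

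Every probe set of the 10 genes was named, with Med1 and Pparg. In each list of related genes (adipogenic factors and coactivators, inhibitors of fat cell formation, lipid droplet proteins, triacylglycerol synthesis, lipolysis, fatty acid uptake and binding, lipoprotein lipase partners) up to 4 called genes with the largest change were named. The members and lists were chosen with earlier results of these data known. Alternatives were other scalings, pseudocounts, filters, thresholds and probe sets, a replicate block, and each array left out. The scaling on Bacillus subtilis controls was chosen after seeing the data.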

Additional observations from a re-analysis of the deposited data

How the results depend on the processing

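Counts by direction depended on the scaling. Signs relative to the median of all tested probe sets could hardly change among the 5 scalings that multiply each array by a constant. As deposited, 6462 of all probe sets were called, 332 of them higher, and 6 member probe sets were called, 1 of them higher. On the hybridisation controls 1547 were higher and 8399 lower, with 4 members higher. On the Bacillus subtilis controls, chosen after seeing the data, 101 were higher and 12214 lower, with 0 members higher (limma; 0 also at an unadjusted p under 0.05) and 11 lower. There Cebpb (-0.89), Cebpd (-0.90), Dgat1 (-0.80) and Dgat2 (-0.34) turned, and Plin2 was at 0.047. These scalings set the median of all genes itself below 0. With the filter at the 60th percentile 7 members were called, 1 of them lower, and with 1 probe set per gene 5 were higher. Without the filter 11 of the 12 calls were kept, and at a threshold of 0.01 10 were. Leaving out each array gave 8157 to 9395 calls in all, and 9 to 12 member calls, 7 to 8 higher and 2 to 4 lower.

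List medians relative to the median of all tested genes were 0.34 for adipogenic factors, -0.22 for inhibitors, -0.38 for droplet proteins, -0.13 for synthesis, 0.062 for lipolysis, -0.96 for uptake and 1.52 for lipoprotein lipase partners. With an array left out they ranged over 0.28 to 0.40, -0.31 to -0.061, -0.48 to -0.26, -0.23 to -0.020, 0.0013 to 0.14, -1.09 to -0.82 and 1.34 to 1.71, in that order. Adipogenic factors moved to 0.20 as deposited, 0.19 with medians or 75th percentiles equal, 0.20 on hybridisation and 0.22 on Bacillus subtilis controls, and 0.64 with the stricter filter. Lipolysis turned to -0.060 as deposited, -0.072 with medians equal, -0.070 with 75th percentiles equal, -0.059 on hybridisation controls, -0.047 on Bacillus subtilis controls and -0.31 with the stricter filter. Uptake moved to -0.59 under the 5 other scalings, synthesis to -0.27 on the Bacillus subtilis controls, and lipoprotein lipase partners to 1.12 with a pseudocount of 32. The cause was not tested.

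With the replicate number as a block, 10879 probe sets were called and 13 of the members, the 12 and the second Lpl probe set (adjusted p = 0.0297, limma). Same-numbered arrays deviated together with a correlation of 0.285, but 2 pairs do not show that the numbers pair the samples. A comparison of protein sequences was not run, since no protein table was used here.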

Other observations

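The 3 genes given here lay under the filter, were not tested and were chosen after their values were seen. Other genes under the filter also had deposited signals that did not overlap. After normalization 45.1% of all probe sets left out by the filter had groups that did not overlap. The deposited signals have no common scale, and the Med1-/- arrays had the lower medians. Ppargc1a, a coactivator of PPAR gamma, had 4.5 and 6.1 in Med1-/- cells and 57.8 and 71.0 in Med1+/+ cells. G0s2, whose product inhibits the lipase of Pnpla2, had 2.0 and 1.5 in Med1-/- cells and 16.4 and 20.6 in Med1+/+ cells. Aqp7, a glycerol channel gene, had 5.5 and 6.3 in Med1-/- cells and 0.2 and 0.3 in Med1+/+ cells.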
